A study of Mus musculus with 32 samples.

Results

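The organic anion and cation transporters described here are 8 genes whose proteins carry drugs, toxins, bile salts, cyclic nucleotides and urate across the membranes of kidney tubule cells. They are Slc22a2, Slc22a6, Slc22a7, Slc22a8, Slc22a12, Slc47a1, Slco1a1 and Abcc4. The list was set by function, but with earlier results of these data known. Counts of the 8 beside shares of all genes are therefore descriptions. Each transporter was measured by 1 array feature that names that gene and no other, out of 22180 genes measured. Whole kidneys of 32 male mice of the 129 strain were profiled on Affymetrix Mouse Gene 2.0 ST arrays, with 1 array per mouse and 8 mice in each of 4 groups. The groups were Col4a3-/- mice (KO) and their Col4a3+/+ littermates (WT) at 4 weeks, and KO and WT mice at 7 weeks. Col4a3 encodes a type IV collagen chain found in the glomerular basement membrane, and mice without it develop a progressive kidney disease used as a model of Alport syndrome. The sources used here do not say which stretch of Col4a3 was deleted. Values are gene-level log2 signals, on which 1 unit is a doubling of signal, and because probes differ in brightness no transporter's level is set against another's.

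Organic anion transport in the proximal tubule is a relay in which a basolateral exchanger takes an anion from the blood in return for a dicarboxylate, and an apical carrier or pump passes it into the urine. Cations follow a parallel route, entering through an organic cation transporter driven by the membrane potential and leaving through a proton exchanger. The same brush border also takes anions back from the urine, as in the reabsorption of urate, and several of these carriers differ between male and female rodents.

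The arrays resembled each other within groups, with Pearson correlations over all genes between 0.97 and 0.99 and array medians between 6.19 and 6.37. Col4a3 itself was lower in KO than in WT kidneys by 0.99 ± 0.13 on the log2 scale at 4 weeks (limma, adjusted p = 8.75e-05; SE) and by 1.65 ± 0.13 at 7 weeks (adjusted p = 3.98e-12). The median of an array was higher in KO than in WT kidneys by 0.11 at 7 weeks and by 0.02 at 4 weeks. A pair of 4-week mice stood apart in several transporters, namely KO mouse 4 and WT mouse 1. Values without them are given where leaving them out changed the call or the sign of a transporter, and not for every change in size. KO mouse 5 of the 4-week group was lowest of its group in Slc22a2, Slc22a6, Slc22a8, Slc47a1 and Abcc4 and highest in Slco1a1. That mouse was left out only in the omissions of single mice. Of the 7-week KO mice, numbers 1, 4, 6 and 8 lay between 56.4 and 62.7 on the first principal component of all genes and numbers 2, 3, 5 and 7 between 24.5 and 36.7. In whole kidney, fewer cells of a type and less RNA per cell cannot be told apart.

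Slc22a6 and Slc22a8 are neighbours on mouse chromosome 19. Their upstream sequences are shown because their signals moved in the same direction in several comparisons. That was not particular to the pair, since Slc22a2 and Slc47a1 were also lower in KO kidneys at 7 weeks and higher with age in WT kidneys. Slc22a6 lies at chr19:8617996-8628299 and Slc22a8 at chr19:8591254-8611835 in GRCm38.p6, both on the plus strand, with 6160 bases from the end of Slc22a8 to the start of Slc22a6. The 250 bases before each RefSeq start (GRCm38.p6, chr19:8617746-8617995 and chr19:8592932-8593181) are printed 5′ to 3′ on the plus strand. The window of Slc22a8 lies within the longer RefSeq gene record.
Slc22a6: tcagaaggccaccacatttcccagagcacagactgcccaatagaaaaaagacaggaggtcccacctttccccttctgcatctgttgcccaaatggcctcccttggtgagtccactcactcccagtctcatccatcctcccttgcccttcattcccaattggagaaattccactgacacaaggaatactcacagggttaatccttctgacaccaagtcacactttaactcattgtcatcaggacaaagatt
Slc22a8: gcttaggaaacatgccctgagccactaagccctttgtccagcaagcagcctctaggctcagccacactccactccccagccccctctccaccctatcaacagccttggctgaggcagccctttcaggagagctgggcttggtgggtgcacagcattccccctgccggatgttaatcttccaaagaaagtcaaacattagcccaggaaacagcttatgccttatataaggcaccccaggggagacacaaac
Neither window held the HNF4 core or the antioxidant response element, the motifs searched, which are spelled out with Abcc4. Both windows hold the letters GTTAAT, an HNF1 motif that was left out of that search. Its share among the RefSeq promoter windows was not counted, so nothing is drawn from its presence here. Abcc4, the transporter that did not fall in KO kidneys, is on the minus strand of chromosome 14 (chr14:118482692-118707856), and its window (chr14:118706220-118706469, within the longer gene record) is shown for its antioxidant response element. The element was searched as TGACNNNGC on both strands, and its match, in capitals, is read on the opposite strand.
Abcc4: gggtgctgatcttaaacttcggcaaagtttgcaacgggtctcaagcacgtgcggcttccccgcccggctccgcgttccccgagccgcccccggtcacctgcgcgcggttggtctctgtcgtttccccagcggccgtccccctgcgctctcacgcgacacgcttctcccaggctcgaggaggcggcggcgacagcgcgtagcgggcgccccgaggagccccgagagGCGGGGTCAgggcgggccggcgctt
The element was present in 10.2% of 32851 RefSeq promoter windows of the same length. The other motif searched, the HNF4 core AAAGTCC on both strands, was in 3.58% of the windows and in none of the 3 sequences printed. These matches are descriptions of the letters and were not set against binding data. Of the 8 transporters, 6 were found among the RefSeq promoter windows used here, and the windows of Slc22a2, Slc22a12 and Slco1a1 held neither motif. A second RefSeq start of Abcc4, not printed, held the HNF4 core and an antioxidant response element.

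At 7 weeks, 7 of the 8 transporters were lower in KO than in WT kidneys and none was higher by the test. The call was a limma adjusted p below 0.05 over all 22180 genes, a threshold at which 16.7% of all genes were lower and 15.6% higher. The largest fall among the 8 was in Slc22a7, which was 3.65-fold lower, followed by Slco1a1 at 2.51-fold and Slc22a12 at 1.68-fold. The Slc22a7 signal in KO mice 1, 4 and 6 was 6.28, 6.20 and 5.82, within or below the range of array medians, 6.19 to 6.37. Its fold size rests in part on those low values. Slc22a6, Slc22a8, Slc47a1 and Slc22a2 were between 1.32-fold and 1.42-fold lower. Abcc4 was the exception, 1.27-fold higher on average with an adjusted p of 0.12. For Slc22a2, Slc22a12, Slc47a1 and Slco1a1 the 8 KO mice all lay below the 8 WT mice, which makes 4 of 8, against 5.42% of all genes that were lower without overlap. The median difference over the 8 genes was -0.48, against -0.06 over all genes. With each array centred on its own median, which takes out the shift of 0.11 between KO and WT arrays, the same 7 were lower, their differences ran from -1.98 for Slc22a7 to -0.51 for Slc22a2, and Abcc4 was at 0.23 (adjusted p = 0.243). On that scale 37.5% of all genes were lower.

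At 4 weeks none of the 8 passed by limma, and none had an unadjusted limma p below 0.05 either. Over all genes, 0.0406% passed by limma at that age. The rank-sum test called 0 of all genes there, so that it called none of the 8 says nothing about them. The differences between KO and WT kidneys ran from -0.15 for Slc22a2 to 0.16 for Slco1a1, with a median of 0.02. The standard errors, from 0.08 to 0.36, leave a wide range for some of them: the 95% interval for Slc22a7 was -0.82 to 0.64 and that for Slco1a1 -0.51 to 0.84.

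**Figure D1:**
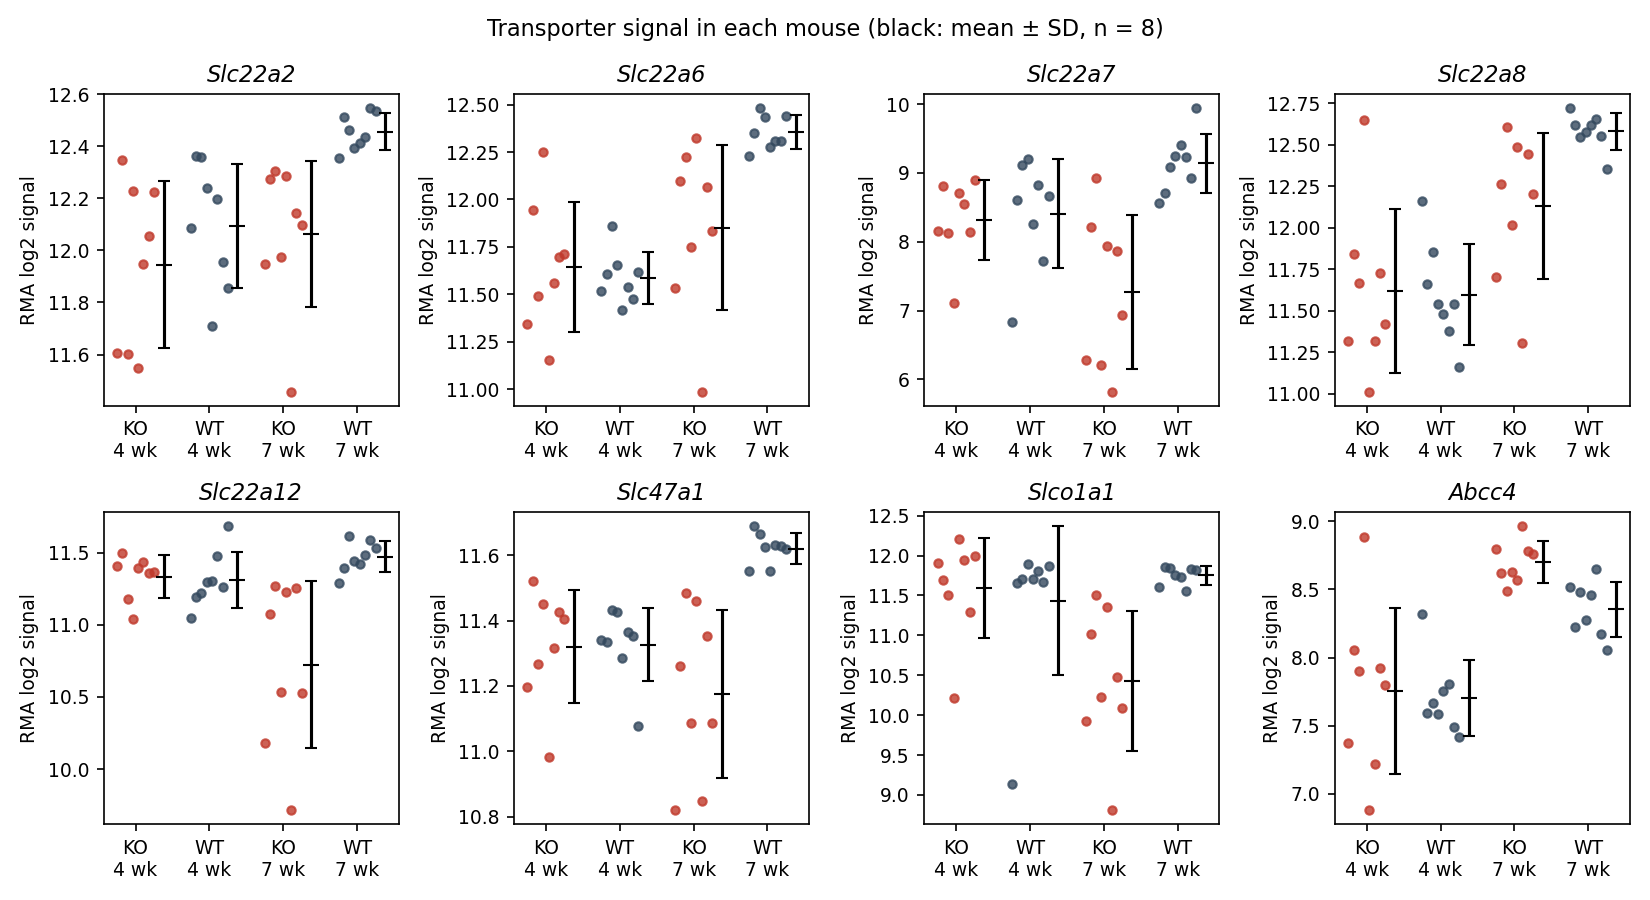
Each panel plots the RMA log2 signal of 1 transporter in each mouse (points) with the mean ± SD (black, n = 8), by group. At 7 weeks the KO points of all transporters other than Abcc4 spread downward from the WT points, while the KO points of Abcc4 run from 8.49 to 8.96, against 8.06 to 8.65 in WT mice.

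Slc22a6, the p-aminohippurate exchanger also called OAT1, takes anionic drugs from the blood. At 7 weeks its log2 signal in KO mice had a lowest value of 10.99, a median of 11.95 and a highest of 12.32, against 12.23, 12.33 and 12.48 in WT mice. At 4 weeks it ran from 11.15 to 12.25 in KO mice with a median of 11.63, against 11.42 to 11.86 with a median of 11.57 in WT mice. At 7 weeks 7 of 8 KO mice were below every WT mouse and 1 overlapped them, while at 4 weeks 2 KO mice were below every WT mouse, 2 above every WT mouse and 4 among them. The difference at 7 weeks was -0.50 ± 0.14 (SE; adjusted p = 0.00468), against 0.06 ± 0.14 at 4 weeks (adjusted p = 0.934). The highest of the 4 groups was 7-week WT, and the other groups lay within 1 SD of their neighbours in the order.

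Slc22a8, or OAT3, is the second basolateral anion exchanger, with a broader range that includes sulfated steroids. Its 7-week KO mice ran from 11.30 through a median of 12.23 to 12.61, against 12.35, 12.60 and 12.72 in WT mice. At 4 weeks KO mice ran from 11.01 through 11.54 to 12.65, against 11.16, 11.54 and 12.16 in WT mice. The overlap at 7 weeks was larger than for Slc22a6, with 5 of 8 KO mice below every WT mouse, and KO mouse 3 reached the WT mean. The fall of 0.45 ± 0.17 passed narrowly (adjusted p = 0.0445, and 0.00661 to 0.0452 over the alternatives other than the scaling to proximal tubule markers). It did not pass when KO mouse 1, 4, 6 or 8 or any of WT mice 1 to 7 was left out, which makes 11 of 16 omissions, with an adjusted p up to 0.132. At 4 weeks the difference was 0.02 ± 0.17 (adjusted p = 0.981).

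Slc22a7, or OAT2, at chr17:46432185-46438477, carries anions such as prostaglandins and cyclic nucleotides. In 7-week KO mice it ran from 5.82 through a median of 7.40 to 8.92, against 8.56, 9.16 and 9.94 in WT mice. At 4 weeks it ran from 7.11 through 8.35 to 8.90 in KO mice, against 6.84, 8.64 and 9.21 in WT mice. KO mouse 3 alone of the 7-week KO mice overlapped the WT range, and the other 7 lay below it. The 7-week SD was 1.12 in KO mice and 0.43 in WT mice (n = 8 each). The difference was -1.87 ± 0.36 at 7 weeks (adjusted p = 9.77e-05) and -0.09 ± 0.36 at 4 weeks (adjusted p = 0.961).

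Slc22a2, or OCT2 (chr17:12584189-12628489), brings cations such as creatinine and metformin in from the blood. In 7-week KO mice it ran from 11.46 through a median of 12.12 to 12.31, against 12.35, 12.45 and 12.55 in WT mice. At 4 weeks it ran from 11.55 through 12.00 to 12.35 in KO mice, against 11.71, 12.14 and 12.36 in WT mice. At 7 weeks the groups did not overlap, although the highest KO mouse came close to the lowest WT mouse, and at 4 weeks they overlapped. The difference was -0.40 ± 0.12 at 7 weeks (adjusted p = 0.00981) and -0.15 ± 0.12 at 4 weeks (adjusted p = 0.739).

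Slc47a1, or MATE1 (chr11:61343400-61378842), is the proton exchanger that passes those cations on into the urine. Its 7-week KO mice ran from 10.82 through 11.17 to 11.49, against 11.55, 11.63 and 11.69 in WT mice. At 4 weeks KO mice ran from 10.98 through 11.36 to 11.52, against 11.08, 11.35 and 11.43 in WT mice. All 8 KO mice were below all 8 WT mice at 7 weeks, and its WT values were the most tightly grouped of the 8 transporters (SD 0.26 in KO and 0.05 in WT mice). The difference was -0.45 ± 0.08 at 7 weeks (adjusted p = 8.15e-05) and -0.01 ± 0.08 at 4 weeks (adjusted p = 0.988).

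Slc22a12, or URAT1 (chr19:6535854-6543070), exchanges urate at the brush border and returns it from the urine. Its 7-week KO mice ran from 9.72 through a median of 10.80 to 11.27, against 11.29, 11.46 and 11.62 in WT mice. At 4 weeks it ran from 11.04 through 11.38 to 11.50 in KO mice, against 11.05, 11.28 and 11.68 in WT mice. The 7-week groups did not overlap, but the highest KO mouse was close to the lowest WT mouse. The difference was -0.75 ± 0.15 at 7 weeks (adjusted p = 0.000185) and 0.03 ± 0.15 at 4 weeks (adjusted p = 0.975). In the order of its 4 groups, 7-week KO stood more than 1 SD below the other 3, which did not differ from their neighbours by more than 1 SD.

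Slco1a1, an organic anion-transporting polypeptide (chr6:141907281-141946962), carries bile salts and steroid conjugates at the brush border of the mouse kidney, where androgen is known to raise it. Its 7-week KO mice ran from 8.81 through 10.36 to 11.51, against 11.55, 11.79 and 11.86 in WT mice. At 4 weeks it ran from 10.22 through 11.80 to 12.21 in KO mice, against 9.13, 11.71 and 11.89 in WT mice. All 7-week KO mice were below all WT mice, and the lowest 4-week value of either genotype belonged to WT mouse 1. The difference was -1.33 ± 0.33 at 7 weeks (adjusted p = 0.002) and 0.16 ± 0.33 at 4 weeks (adjusted p = 0.914), where it became -0.16 without WT mouse 1. The probes of Slco1a1 may be shared with other Slco1a genes, so its signal is uncertain between them.

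Abcc4, or MRP4, is an ATP-driven pump that exports anions, cyclic nucleotides and conjugates through the apical membrane. In 7-week KO mice it ran from 8.49 through 8.69 to 8.96, against 8.06, 8.37 and 8.65 in WT mice. At 4 weeks KO mice ran from 6.88 through 7.85 to 8.88, against 7.41, 7.63 and 8.32 in WT mice. At 7 weeks 4 of 8 KO mice were above every WT mouse, and the KO mice were no more spread than the WT mice (SD 0.15 in KO and 0.20 in WT, n = 8 each). The 7-week difference of 0.35 ± 0.17 did not pass (95% CI 0.00 to 0.69, adjusted p = 0.12). It passed with the 2 groups alone in the fit (adjusted p = 0.00388), by the rank-sum test (0.0113), with array weights (0.0132) and without KO mouse 4 and WT mouse 1 of the 4-week groups (0.0285), within a range up to 0.243 over the alternatives other than the scaling to proximal tubule markers. At 4 weeks the difference was 0.05 ± 0.17 (adjusted p = 0.954).

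**Figure D2:**
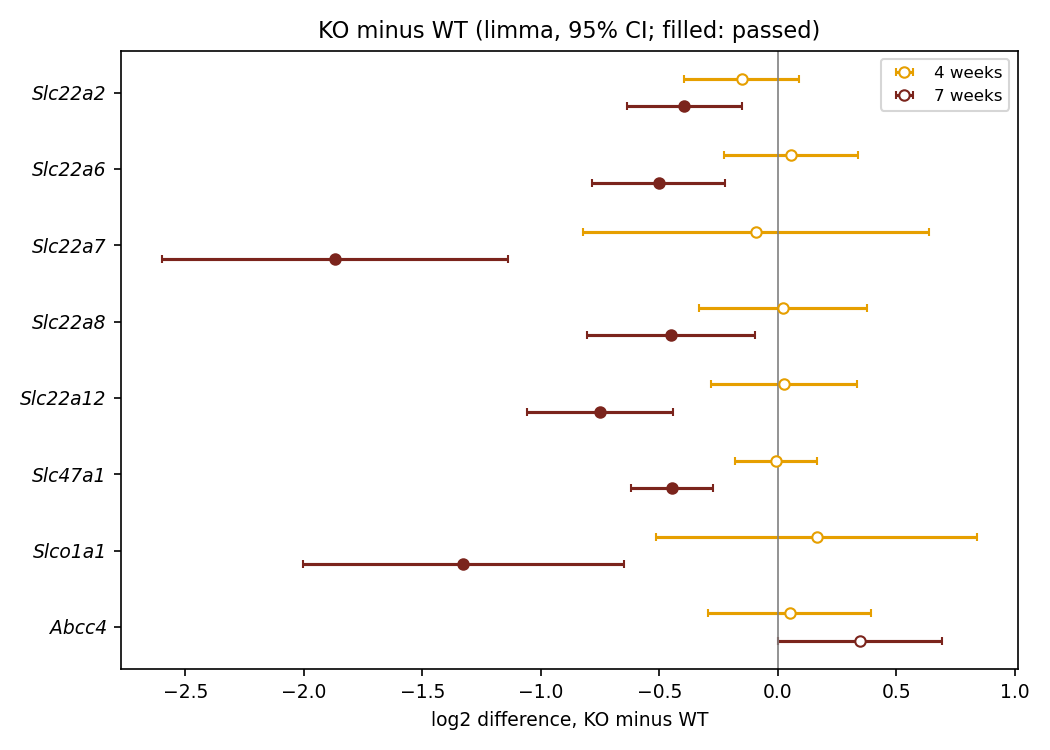
The plot gives the log2 difference, KO minus WT, for each transporter at 4 and 7 weeks with the 95% confidence interval from limma (n = 8 mice per group), filled where the adjusted p was below 0.05. The 4-week differences lie between -0.15 and 0.16, and 7 of the 8 differences at 7 weeks lie below 0.

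The change between ages in the KO minus WT difference was tested directly as the interaction of genotype and age. It passed for 5 of 8, all in the direction of a larger deficit at 7 weeks, while 7.24% of all genes passed in that direction and 9.8% in the other. It was -1.78 ± 0.51 for Slc22a7 (adjusted p = 0.0129), -1.49 ± 0.47 for Slco1a1 (0.0248), -0.77 ± 0.21 for Slc22a12 (0.0102) and -0.44 ± 0.12 for Slc47a1 (0.00917). The fifth, Slc22a6, was at -0.56 ± 0.20 with an adjusted p of 0.045, a call that ended in 22 of 32 omissions of a single mouse. Those omissions were of WT mice 1, 2, 5, 6, 7 and 8 and KO mice 2, 4, 6, 7 and 8 at 4 weeks, and of WT mice 2 to 8 and KO mice 1, 4, 6 and 8 at 7 weeks, with an adjusted p of up to 0.0799 and of 0.0911 without both 4-week mice that stood apart. Without both of those mice 4 transporters passed, Slc22a7, Slco1a1, Slc22a12 and Slc47a1. Slc22a8 was at -0.47 ± 0.25 (0.202), Slc22a2 at -0.24 ± 0.17 (0.361) and Abcc4 at 0.30 ± 0.24 (0.449), none of which passed. With the mean of 11 pan-proximal tubule markers subtracted from each array, an alternative chosen after the data were seen, 1 transporter passed in each direction, Slc22a7 at -1.32 (adjusted p = 0.0236) and Abcc4 at 0.75 (0.0154), while 0.451% of all genes were called in the negative and 34.8% in the positive direction. The calls ended there for Slco1a1 (-1.04, 0.0674), Slc22a12 (-0.32, 0.167), Slc22a6 (-0.11, 0.498) and Slc47a1 (0.01, 0.925).

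Between 4 and 7 weeks, transporter signal rose in WT kidneys and went both ways in KO kidneys. In WT mice 5 of 8 rose with age and none fell, while 15.4% of all genes were higher at 7 weeks and 14.1% lower. The risers were Slc22a8 at 0.98 ± 0.17 (limma, adjusted p = 5.99e-05), Slc22a6 at 0.77 ± 0.14 (7.35e-05), Abcc4 at 0.65 ± 0.17 (0.00348), Slc22a2 at 0.36 ± 0.12 (0.0202) and Slc47a1 at 0.29 ± 0.08 (0.00771). The call for Slc22a2 ended without WT mouse 5 of the 4-week group (adjusted p = 0.0563). For Slc22a6, Slc22a8 and Slc47a1 every 7-week WT mouse was above every 4-week WT mouse, which is 3 of 8, against 7.38% of all genes. The WT differences that did not pass were 0.74 ± 0.36 for Slc22a7 (0.129), 0.32 ± 0.33 for Slco1a1 (0.532) and 0.16 ± 0.15 for Slc22a12 (0.476). That of Slco1a1 became -0.01 without WT mouse 1 of the 4-week group. Relative to the proximal tubule markers, Slc22a8 (0.68, 6.95e-05) and Slc22a6 (0.47, 0.000674) were still called higher, with 3.02% of all genes, and the calls ended for Abcc4 (0.35, 0.0778), Slc22a2 (0.06, 0.608) and Slc47a1 (-0.01, 0.945).

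In KO mice 2 transporters were higher at 7 than at 4 weeks and 3 were lower, while 21.4% of all genes were higher and 21.3% lower. Abcc4 rose by 0.95 ± 0.17 (adjusted p = 2.76e-05) and Slc22a8 by 0.51 ± 0.17 (0.0174), whereas Slco1a1 fell by 1.17 ± 0.33 (0.00454), Slc22a7 fell by 1.04 ± 0.36 (0.0187) and Slc22a12 fell by 0.61 ± 0.15 (0.00131). The call for Slc22a8 ended without 4-week KO mouse 5 (adjusted p = 0.0509), with only the compared groups in the fit (0.0586) and by the rank-sum test (0.187). That for Slc22a7 ended without 7-week KO mouse 6 (0.0566) and by the rank-sum test (0.129). The other 3 gave 0.21 ± 0.14 for Slc22a6 (0.228), 0.12 ± 0.12 for Slc22a2 (0.453) and -0.15 ± 0.08 for Slc47a1 (0.169). Slc22a6 passed, at 0.33 (0.0228), when 7-week KO mouse 6 was left out. Slc47a1 passed with each array centred on its median, at -0.22 (0.0382), and with array weights, at -0.19 (0.0489). Relative to the proximal tubule markers 7 of the 8 passed, 4 higher and 3 lower, with 22.1% of all genes called higher and 4.31% lower. The calls gained were for Slc22a6 (0.36, 0.00369) and Slc22a2 (0.27, 0.0458). As deposited, Slc22a12, Slc22a7 and Slco1a1 were lower at 7 than at 4 weeks in KO kidneys, while Slc22a6, Slc22a2 and Slc47a1 were lower than in 7-week WT kidneys without a called fall from 4 weeks.

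**Figure D3:**
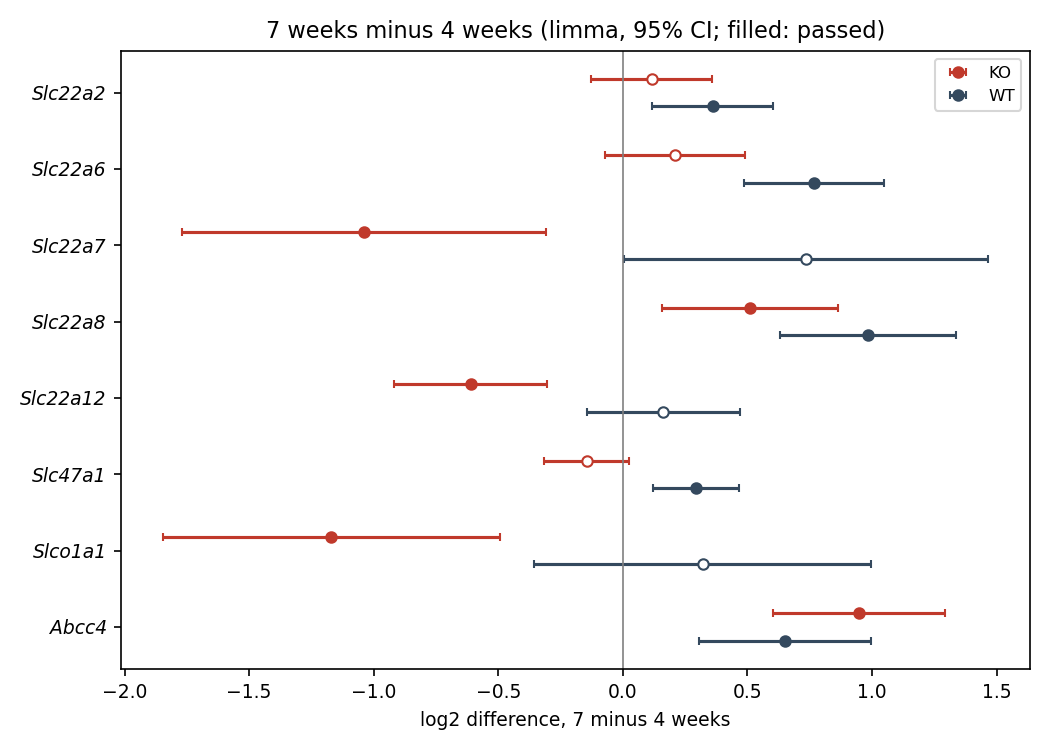
Points are log2 differences of 7 minus 4 weeks for each transporter in KO and WT mice, with 95% confidence intervals from limma (n = 8 per group), filled where the adjusted p was below 0.05. Slc22a7, Slc22a12, Slco1a1 and Slc47a1 lie below 0 in KO mice, the last without passing, while no WT point does.

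The 7-week KO mice differed from each other in a way that 7 transporters shared. The SD of the KO mice was 2.6 to 7.57 times that of the WT mice for those 7, and 0.755 times for Abcc4. The main limma fit pools the spread of each gene over the 4 groups. With only the compared groups in the fit, the 7-week limma adjusted p was higher for Slc22a12 (0.00406), Slc22a7 (0.000736), Slc47a1 (0.000702) and Slc22a6 (0.0101). It was lower for Slc22a2 (0.00352), Slc22a8 (0.0208) and Slco1a1 (0.00106), and all 7 still passed. Over all genes the median SD at 7 weeks was 0.165 in KO and 0.159 in WT mice, against 0.438 in KO and 0.109 in WT mice over the 8 transporters. KO mice 1, 4, 6 and 8 held the 4 lowest places for each of the 7, and these are the same mice that lay between 56.4 and 62.7 on the first principal component. Mouse 6 was lowest in 6 of the 7, the exception being Slc47a1, where mouse 1 was lowest. KO mice 1, 4, 6 and 8 also had the 4 lowest pan-proximal tubule marker means and the 4 highest injured-tubule marker means, described below. The split was therefore not particular to the transporters.

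Set against the 7-week WT mean, Slc22a7 in KO mice 1 to 8 was at -2.86, -0.92, -0.22, -2.94, -1.20, -3.32, -1.28 and -2.21. The same differences for Slco1a1 were -1.83, -0.73, -0.24, -1.52, -0.40, -2.94, -1.27 and -1.67. KO mouse 3 was nearest to the WT mean in both genes and mouse 6 farthest from it. For Abcc4 they were 0.44, 0.27, 0.13, 0.27, 0.22, 0.61, 0.43 and 0.40, again smallest in mouse 3 and largest in mouse 6, but upward.

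**Figure D4:**
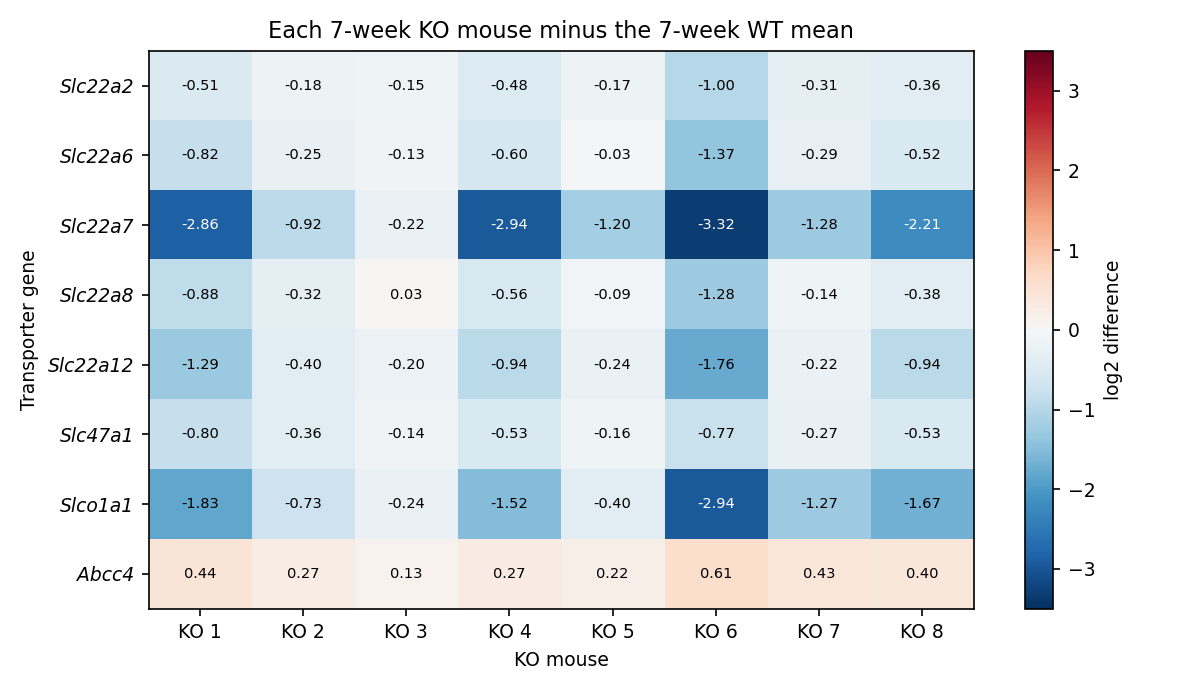
The heat map gives, for each transporter and each 7-week KO mouse, the log2 signal minus the mean of the 8 WT mice of that age. Mouse 6 has the deepest value in 6 of the 7 upper rows and mouse 3 is close to 0 in most of them.

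Markers of other cells and of the tubule segments also differed among these mice or between the groups. The mean log2 signal of 11 pan-proximal tubule markers (among them Lrp2, Cubn and Aqp1) ran from 10.97 in mouse 6 to 11.97 in mouse 3 among 7-week KO mice, against 12.02 to 12.13 in WT mice. Of those 11 markers, 10 were lower in KO kidneys at 7 weeks and none was higher, with a median difference of -0.47, close to the -0.48 of the transporters. All 4 markers of the S1 segment were lower (median -0.76), and of the S3 markers 3 were lower and 1, Slc5a1, was higher. Of 5 distal tubule and collecting duct markers 3 were lower and none higher, all 3 without overlap of the groups, with a median of -0.45. Among all genes at 7 weeks, 16.7% were lower, 15.6% were higher and 5.42% were lower without overlap. Of 4 loop of Henle markers 1 was higher and 1 lower, of 4 endothelial markers 2 were lower, and of 3 podocyte markers none passed. The mean of 7 injured-tubule markers, among them Havcr1, Lcn2 and Vcam1, ran from 8.91 in mouse 3 to 10.06 in mouse 6, against 6.29 to 6.56 in WT mice. All 7 injured-tubule, all 5 macrophage and all 5 fibroblast and matrix markers were higher in 7-week KO kidneys, with median differences of 3.18, 2.58 and 1.71. The macrophage mean ran from 8.40 to 9.80 in KO mice, against 6.67 to 7.11 in WT mice, and the fibroblast and matrix mean from 9.13 to 9.97 in KO mice, against 7.91 to 8.19 in WT mice. Hepatocyte markers, measured because Slco1a1 and Slc22a7 are also liver genes, averaged 7.02 to 7.86 in KO and 7.81 to 8.05 in WT mice, and 1 of 4, Alb, was lower and none higher. At 4 weeks KO mouse 4 had the highest injured-tubule mean of its group, 8.22 against a group median of 7.10. The part of these cell types in the transporter values was not tested.

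With the mean of the pan-proximal markers subtracted from each array, an alternative chosen after the data were seen, 2 transporters were lower at 7 weeks and 1 was higher. On that scale 78% of all genes were called higher and 1.19% lower. Slc22a7 was at -1.35 ± 0.32 (limma, adjusted p = 0.00055), Slco1a1 at -0.80 ± 0.32 (0.0238) and Abcc4 at 0.87 ± 0.17 (4.57e-05). The others gave 0.13 ± 0.10 for Slc22a2 (0.237), 0.02 ± 0.10 for Slc22a6 (0.84), 0.07 ± 0.11 for Slc22a8 (0.546), -0.23 ± 0.14 for Slc22a12 (0.124) and 0.08 ± 0.09 for Slc47a1 (0.402). None of these 5 passed on that scale, and 4 of them, all but Slc22a12, had a positive sign there.

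**Figure D5:**
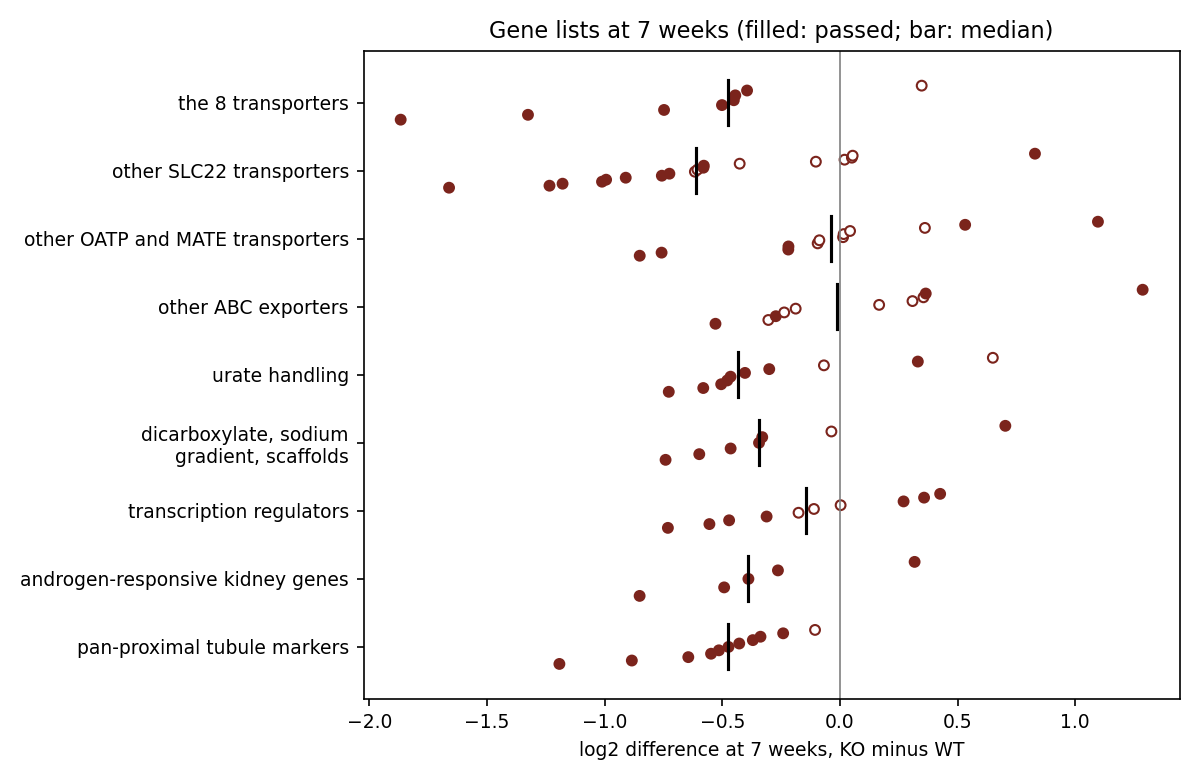
Each point is 1 gene of a list, placed at its log2 difference, KO minus WT, at 7 weeks, filled where the limma adjusted p was below 0.05, with a bar at the list's median. The 8 transporters have a median of -0.48, and the pan-proximal markers -0.47.

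Other transporters of the same families went both ways at 7 weeks. Of 18 measured SLC22 genes, 10 were lower in 7-week KO kidneys, 1 was higher and 7 did not pass, with a median of -0.61. Slc22a5, the carnitine carrier, was at -0.73 ± 0.10 (adjusted p = 3.3e-07), Slc22a4, which carries ergothioneine, at -1.01 ± 0.15 (1.63e-06) and Slc22a26 at -1.66 ± 0.28 (1.42e-05), while Slc22a15 rose by 0.83 ± 0.09 (3.23e-09). Slc22a27 (-0.62 ± 0.24, 0.0509) and Slc22a29 (-0.61 ± 0.27, 0.0826) did not pass. Slc22a19 and Slc22a26 to Slc22a30 are close relatives whose probes may be shared, so the signal of each is uncertain.

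Among 12 other polypeptide and MATE transporters, 4 were lower, 2 higher and 6 did not pass, with a median of -0.04. Slco1a4 was at -0.76 ± 0.15 (0.000153), Slco1a6 at -0.85 ± 0.18 (0.000281) and Slco1c1 at -0.22 ± 0.07 (0.0158), whereas Slco4a1, which carries thyroid hormone, was at 1.10 ± 0.20 (5.42e-05). Slco4c1 (0.36) and Slc47a2, the MATE2 gene (-0.10), did not pass. Among 10 other ABC exporters 2 were higher and 2 lower, with a median of -0.01. The pump Abcc3 was at 1.29 ± 0.18 (6e-07) and Abcc1 at 0.36 ± 0.10 (0.00616), and Abcc6 was at -0.53 ± 0.13 (0.00204) and Abcg2, which exports urate, at -0.27 ± 0.09 (0.0217). The P-glycoprotein genes Abcb1b (0.35 ± 0.20, 0.18) and Abcb1a (0.31 ± 0.14, 0.0947) did not pass.

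Of 10 genes of urate handling, 7 were lower, 1 was higher and 2 did not pass, with a median of -0.43. Slc16a9 was at -0.73 ± 0.12 (1.38e-05), the basolateral urate carrier Slc2a9 at -0.30 ± 0.06 (0.000286), the lactate carrier Slc5a8 at -0.58 ± 0.12 (0.000329) and the apical phosphate and urate carrier Slc17a1 at -0.40 ± 0.09 (0.000335). Xdh, which makes urate, was at 0.65 ± 0.26 (0.054), and Uox, which degrades it in the mouse, at -0.07 ± 0.11. Of 7 genes of dicarboxylate exchange, the sodium gradient and scaffolding, 5 were lower and 1 higher. Slc13a3, the dicarboxylate cotransporter that feeds OAT1 and OAT3 exchange, was at -0.60 ± 0.18 (0.00991), the proton exchanger Slc9a3 at -0.74 ± 0.15 (0.000127) and its scaffold Slc9a3r1 at -0.34 ± 0.10 (0.0049). Slc13a1, a sulfate cotransporter, was at 0.70 ± 0.09 (9.6e-08), and Atp1b1, a sodium pump subunit, at -0.04.

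Of 10 regulators known to act on transporter genes, 4 were lower and 3 higher in 7-week KO kidneys. The nuclear receptors Hnf4a (-0.47 ± 0.08, 2.66e-05), Nr1h4 (-0.56 ± 0.11, 9.07e-05) and Ppara (-0.73 ± 0.15, 0.000186) fell, and Nfe2l2, which acts through antioxidant response elements, was at 0.43 ± 0.10 (0.000791). Bcl6 (-0.18) and Nr1i3 (-0.11) did not pass. At 4 weeks no gene of these 6 companion lists passed. Relative to the proximal tubule markers, no gene of the polypeptide, ABC, urate, dicarboxylate or regulator lists was called lower. In that order, 10, 7, 3, 2 and 5 of their genes were called higher. On that scale 78% of all genes were called higher and 1.19% lower. The sign turned for Slco1c1, Slco3a1, Abcg2, Slc2a9, Slc17a1, Slc17a3, Slc17a4, Slc5a12, Slc26a1, Slc26a6, Slc9a3r1, Hnf4a and Hnf4g, while 7 SLC22 genes were called lower and 5 higher. With arrays centred on their medians no gene called in these lists turned sign, but 4 rises were no longer called (Slco2a1, Carmil1, Nr1i2 and Ahr), so that 1 regulator was higher and 4 lower. Another 9 genes were called lower there, namely Slc22a23, Slc22a27, Slc22a29, Slc47a2, Slco2b1, Abcc2, Abcc10, Abcc12 and Atp1b1, so that 5 ABC exporters were lower. The lists were drawn up with earlier results of these data known. Their counts as deposited are read beside the 16.7% of all genes lower and 15.6% higher at 7 weeks. Those with arrays centred are read beside the 37.5% of all genes lower on that scale.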

How the data were processed

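Values were gene-level log2 signals that the authors deposited after robust multi-array averaging, per the labels, in Affymetrix Expression Console, per the submitters' processing notes (version not given in the sources used here). Scanner files and scan batch were not analysed here. Of 41345 features, 23521 named 1 gene, 1814 several and 16010 none; for the 1082 genes with several features the one with the highest mean was used, giving 22180 genes, of which 21994 matched RefSeq by Entrez number. All 32 columns were matched to a mouse, 0 were left over, and no value was filtered or offset. All 8 transporters stayed in when the dimmest genes were left out, and 16635 genes then remained. The sources used here do not name the probes' build, and positions and promoter windows are those of RefSeq on GRCm38.p6.

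limma 3.58.1 (R 4.3.3) was fitted to the 4 groups together (28 residual degrees of freedom), with Benjamini-Hochberg adjustment over all 22180 genes and a threshold of 0.05, and was tested on simulated data. Figures and summaries used Python 3.11.15, numpy 2.4.6, pandas 2.3.3 and matplotlib 3.10.9. The alternatives were array centring, array weights, a trended robust variance model, only the compared groups, the mean of all features, a filter on dim genes, the rank-sum test, the replicate number as a block and leaving out each mouse; 2 more were chosen after the data were seen (subtracting proximal tubule markers, and leaving out both 4-week mice that stood apart). Members and gene lists were chosen with earlier results of these data known. Of 146 list genes 136 were measured; the others were not analysed here. Named genes were all 8 transporters, Col4a3, and from each companion list up to 4 passing genes with the smallest p and up to 2 of the largest changes among those not passing, and for each transporter the genes with the highest Pearson correlation over the 32 mice, predicted and small RNA genes left out. The number of arrays limits the precision of every value.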

Additional observations from a re-analysis of the deposited data

Results flagged for a closer look

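In 6 of 32 sets of 8 mice examined, 1 mouse lay far from the other 7, by a rule that chance meets in about 1 set in 20. KO mouse 4 of the 4-week group was far below the others in Slc22a7 (7.11) and Slco1a1 (10.2). WT mouse 1 of the 4-week group was far below in Slco1a1 (9.13) and far above in Abcc4 (8.32). WT mouse 8 of the 4-week group was low in Slc47a1 (11.1), and KO mouse 6 of the 7-week group was low in Slc22a2 (11.5).

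The KO minus WT difference changed between ages, by the interaction test, for Slc22a7 (-1.78), Slco1a1 (-1.49), Slc22a12 (-0.77), Slc22a6 (-0.56) and Slc47a1 (-0.44), each more negative at 7 weeks than at 4. In that direction 7.24% of all genes passed. The call for Slc22a6 ended in 22 of 32 omissions of a single mouse. Relative to the proximal tubule markers, only Slc22a7 among them was still called.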

How the results depend on the processing

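At 4 weeks 9 genes passed; 5 passed with array weights, 1 with only the compared groups, 0 by the rank-sum test (1603 at unadjusted p below 0.05, against 2044 with limma), 2 relative to the proximal tubule markers, 5 without both 4-week mice that stood apart, and 3 to 24 leaving out single mice. At 7 weeks 10892 genes passed with arrays centred on their medians (7167 as deposited; 23.6% of calls higher, against 48.4%), which kept 7 transporters lower. Centring also left 33.2% of calls higher for the interaction (57.5% as deposited) and 35.1% for age in KO mice (50.1%). Relative to the markers, 17570 genes (98.5% of them higher) and 3 transporters passed at 7 weeks, 7820 and 2 for the interaction, 5863 and 7 for age in KO mice, and 10063 and 2 for age in WT mice. The rank-sum test called 8174 genes and 3 transporters for age in KO mice, against 9453 and 5 with limma as deposited. With the markers subtracted, signs turned at 7 weeks for Slc22a2 (0.13), Slc22a6 (0.020), Slc22a8 (0.071) and Slc47a1 (0.077), in the interaction for Slc22a2 (0.21) and Slc47a1 (0.014), for age in KO mice for Slc47a1 (0.0062), and for age in WT mice for Slc22a12 (-0.14) and Slc47a1 (-0.0073); at 4 weeks Slc47a1 was at 0.064. At 4 weeks, where no transporter was called, array weights gave 0.064 for Slc22a7, -0.059 for Slc22a8 and 0.0084 for Slc47a1, and the rank-sum test 0.012 for Slc47a1. Without both 4-week mice Slc22a6 was at -0.041, Slc22a8 at -0.045 and Abcc4 at -0.023, and Slco1a1 for age in WT mice at -0.0085. Leaving out single mice, the 4-week differences ran from -0.030 to 0.13 for Slc22a6, -0.31 to 0.081 for Slc22a7, -0.13 to 0.11 for Slc22a8, -0.012 to 0.079 for Slc22a12, -0.042 to 0.042 for Slc47a1, -0.16 to 0.36 for Slco1a1 and -0.11 to 0.18 for Abcc4, and the WT age difference of Slco1a1 from -0.0085 to 0.39. Replicate numbers did not pair the mice (mean correlation of same-numbered KO and WT mice -0.05 at 4 weeks and 0.017 at 7 weeks; 1 and 2 of 8 KO mice correlated best with their own number). With the replicate block 7, 7067, 3743, 9397 and 6473 genes passed in the 5 comparisons, against 9, 7167, 3779, 9453 and 6553, and 0, 7, 5, 5 and 5 transporters did, as without it. Unless stated above, the cause of a change was not tested.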

Other observations

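Genes known to respond to androgen in the mouse kidney were measured because Slco1a1 is one of that kind. Of 5 such genes, 4 were lower in 7-week KO than in WT kidneys and 1 was higher, with a median of -0.39: Odc1 was at -0.85 ± 0.19 (limma, adjusted p = 0.000688), Cyp2j13 at -0.49 ± 0.11 (0.000684), Cyp4b1 at -0.39 ± 0.11 (0.004) and Gusb at 0.32 ± 0.10 (0.0156). At 7 weeks 16.7% of all genes were lower and 15.6% higher. With arrays centred on their medians, where 37.5% of all genes were lower, Gusb no longer passed and the 4 falls did. Relative to the proximal tubule markers the sign turned for Cyp2j13, Cyp4b1 and Kap. On that scale 2 of the 5 were called higher and none lower, with 78% of all genes called higher and 1.19% lower. At 4 weeks none of the 5 passed, and 0.0406% of all genes did. The part of androgen was not tested. The mice were all male.

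The genes whose signal followed each transporter most closely over the 32 mice are given as a description, since those mice share group differences. Slc22a6 was followed by Cyp4b1 (Pearson r 0.967), Slc22a8 by the dicarboxylate carrier gene Slc13a3 (0.958), Slc47a1 by Kl, which encodes klotho (0.958), Slco1a1 by the fatty acid carrier gene Cd36 (0.944) and then Akr1c14 (0.935), Slc22a12 by Acsm2 (0.943), Abcc4 by Tle4 (0.942), Slc22a7 by Pdk3 (0.930) and Slc22a2 by Marchf6 (0.926).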
